A study of Danio rerio with 2 samples.

Results

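Aminoacyl-tRNA synthetases and amino acid transporters were examined in 2 RNA sequencing libraries of sorted kdrl:GFP+ cells from zebrafish embryos, 1 from mutants and 1 from their siblings. The genes were chosen by name. They comprised every gene named for a tRNA synthetase by its amino acid letter, the synthetase-associated proteins aimp1 and aimp2, and every gene whose name begins with slc7a, slc3a2, slc43a, slc38a or slc6a9. Of 21699 genes listed in either library, 75 met the name rule, and 72 of these had a mean FPKM (fragments per kilobase of gene length, scaled to the total of the library) over both libraries of at least 0.5. The 72 were 22 cytosolic synthetase and AIMP genes, 14 mitochondrial synthetase genes, 35 transporter genes and slc7a6os, which is named for its position beside slc7a6 and is not a transporter. The 3 left out were pars2, slc7a14b and slc7a8b, with mean FPKM values of 0.29, 0.26 and 0.12, and the lowest kept were slc7a9 and slc7a1a at 0.54 and 0.55.

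Each synthetase joins an amino acid to its transfer RNA, the step that supplies the ribosome with building blocks. Vertebrate cells keep separate sets of these enzymes for the cytosol and the mitochondria, mostly encoded by separate genes. Several cytosolic synthetases are held in a multisynthetase complex on scaffold proteins that include AIMP1 and AIMP2. Transporters of the SLC7, SLC38, SLC43 and SLC6 families carry amino acids across membranes, and some SLC7 proteins reach the cell surface only when joined to the heavy chain SLC3A2. In mammals the transcription factor ATF4 raises the transcription of many cytosolic synthetases and of several of these transporters when amino acids are short or the endoplasmic reticulum is under stress.

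The embryos came from crosses of fish carrying the Tg(kdrl:GFP) transgene and 1 copy of the tsu3994 allele of gbf1, a gene for a Golgi exchange factor of ARF GTPases, and all were taken at 44 hours post fertilization. The sibling library was made from morphologically normal embryos of the cross and the mutant library from morphologically mutant ones, and both carried the transgene. Embryos were sorted by appearance, the labels do not give the genotypes of the siblings or the number of embryos pooled, and the transgene is driven by the promoter of kdrl, an endothelial VEGF receptor gene. The lesion is not described either, so the gbf1 transcript does not check the genotype (FPKM of 3.44 in siblings and 6.13 in mutants).

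The libraries held 5657525 (sibling) and 6169373 (mutant) expected counts, of which the 72 genes took 0.35% and 0.46%. Neither library held endothelial cells alone. kdrl stood at 6.38 and 21.3 FPKM (sibling value first here and throughout), beside 159111 and 118855 FPKM for the globin gene hbae1.2. Of 20 pan-endothelial markers, 14 were at least 2-fold higher in the mutant library, and their summed level was 87.0 and 306 FPKM. The summed level of 25 skeletal muscle markers was 1153 and 332 FPKM, with 18 at least 2-fold lower and 1 gene named tnni2 listed at 0 in the mutant library. Erythroid markers summed to 162904 and 127374, epidermal to 1297 and 1049, mural and mesenchymal to 332 and 456, and myeloid markers to 678 and 978 FPKM. Abundant genes weigh most in such sums. Of 14 mural and mesenchymal markers 8 were at least 2-fold higher and none lower, and of 10 epidermal markers 4 were lower and none higher. Of 15 myeloid markers 4 were higher and none lower, and of 16 erythroid markers 1 was lower and none higher. Among the 17023 genes whose mean FPKM reached 0.5, 7.08% passed the 2-fold limit upward and 1.72% passed it downward. In such bulk samples fewer cells of a type and less RNA per cell cannot be told apart. These marker differences accompany every result below, and their part in the results was not tested. With 1 library in each group there is no replicate error and no test, so the values compare these 2 libraries. The interval given with a ratio of expected counts is an exact 95% interval that covers counting error only.

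Cytosolic synthetase transcripts were higher in the mutant library as a class, by a small amount, whereas mitochondrial synthetases and transporters lay near the average gene. The difference of a gene is given as a log2 fold, the base-2 logarithm of (mutant FPKM + 1) over (sibling FPKM + 1). The added 1 makes it smaller than the ratio itself for genes with low FPKM. The median log2 fold was 0.43 over the 22 cytosolic genes, 0.25 over the 14 mitochondrial genes and 0.25 over the 35 transporters, beside 0.23 over all 17023 genes with a mean FPKM of at least 0.5. Relative to that median of all genes, the classes stood at 0.20, 0.02 and 0.01. Of the cytosolic genes 18 of 22 lay above the median gene, compared with 8 of 14 mitochondrial genes and 18 of 35 transporters. The cytosolic median exceeded the mitochondrial one by 0.18 and the transporter one by 0.19. Over 7 alternatives of scaling or pseudocount these differences ranged from 0.10 to 0.23 and from 0.12 to 0.20. Centring takes the same value from every gene, so it could not change them, and other FPKM minimums are not part of these ranges. Differences of 2-fold were about as frequent as among all genes. Of the 72 genes 6 were at least 2-fold higher, 8.33%, beside 7.08% of all genes, and none was at least 2-fold lower, beside 1.72% of all genes.

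**Figure D1:**
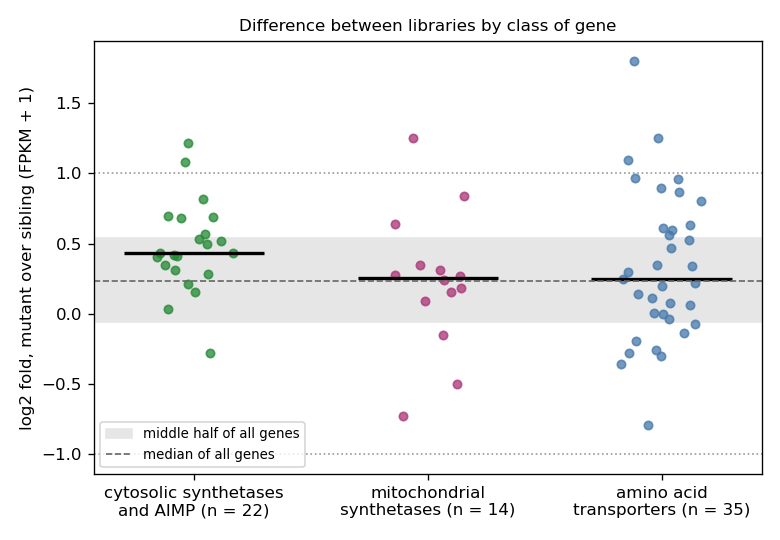
Log2 fold of each gene (vertical axis, mutant over sibling, on FPKM + 1) in the 3 classes, with 1 point per gene and a black bar at the class median. The dashed line marks the median of all 17023 genes (0.23), the grey band the middle of their distribution from the lower to the upper quartile, and the dotted lines a 2-fold difference; the cytosolic median (0.43) lies above the dashed line, while the other medians (both 0.25) lie close to it.

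By counts, the cytosolic class had the largest share of genes with an interval above 1. The counting interval of the ratio lay above 1 for 18 of 22 cytosolic genes (81.8%), 4 of 14 mitochondrial genes (28.6%) and 16 of 35 transporters (45.7%), beside 34% of all genes. It lay below 1 for no synthetase gene and for 2 transporters, slc38a5 and slc38a8, beside 6.97% of all genes. Abundant genes have narrower intervals, and 21 of the 22 cytosolic genes had a mean FPKM of at least 5, as did 1 mitochondrial gene and 16 transporters. Among all 7917 genes at that level, the interval lay above 1 for 44.5%, and among the 16 transporters at that level for 11 (68.8%). The median gene itself stood at a count ratio of 1.22, and the interval cleared that value for 10 cytosolic genes (45.5%), 1 mitochondrial gene and 9 transporters, beside 16.9% of all genes and 20.5% of the genes with a mean FPKM of at least 5. It lay wholly below that value for 2 cytosolic genes, farsa and wars1, for 2 mitochondrial genes and for 6 transporters, beside 17.6% of all genes. On FPKM the gap between cytosolic synthetases and transporters depended on the level of the genes: the 16 transporters at or above 5 FPKM had a median log2 fold of 0.41, close to the cytosolic 0.43. By counts the median ratios were 1.28 for these transporters and 1.36 for the cytosolic genes. Their intervals cleared the median gene for 31.2% and 45.5%. The gene length listed for each library differed by more than 10% for 5 of these 16 transporters and 3 of the 22 cytosolic genes.

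The most abundant cytosolic synthetase was aars1, the alanyl-tRNA synthetase, at 85.8 and 115 FPKM with a count ratio of 1.32 (1.24 to 1.40). It was followed by kars1 (lysyl, 67.9 and 90.5 FPKM) and nars1 (asparaginyl, 56.2 and 81.0), with count ratios of 1.33 (1.22 to 1.46) and 1.44 (1.31 to 1.57). These 3 abundant genes thus differed by nearly the same factor. The least abundant enzyme gene was lars1 (leucyl), at 6.88 and 11.7 FPKM, and aars1 exceeded it per length 12.5-fold in the sibling and 9.88-fold in the mutant library. A further leucyl gene, lars1a, which does not meet the name rule, was at 6.74 and 12.0 FPKM. Its expected counts were not whole, so reads were divided between genes there, and its value is uncertain.

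The largest difference in the class was that of eprs1, which encodes the bifunctional glutamyl-prolyl-tRNA synthetase. It stood at 17.0 and 40.8 FPKM from 543 and 1413 expected counts, a log2 fold of 1.21 and a count ratio of 2.39 (2.16 to 2.64). cars1, the cysteinyl enzyme, followed at 8.11 and 18.3 FPKM (144 and 351 counts), a log2 fold of 1.08 and a ratio of 2.24 (1.84 to 2.73). These were the 2 cytosolic genes past 2-fold, and neither was past it once the log2 folds were centred on the median gene or the counts were scaled between libraries by TMM (trimmed mean of M-values) or by median of ratios. cars1 also lay under the limit when FPKM was rescaled without the 10 highest genes, which are mostly globins.

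An intermediate group had count ratios between 1.5 and 1.9. gars1 (glycyl) was at 35.1 and 62.6 FPKM (ratio 1.78, 1.60 to 1.98), tars1 (threonyl) at 35.9 and 58.6 (1.59, 1.43 to 1.77), and lars1 had a ratio of 1.69 (1.36 to 2.11). qars1 (glutaminyl) was at 8.63 and 14.6 FPKM with a ratio of 1.90 (1.51 to 2.39), and farsb, the beta subunit of the phenylalanyl enzyme, was at 16.2 and 24.5 FPKM with a ratio of 1.51 (1.26 to 1.82). For these 5 genes, and also for eprs1, cars1, aars1 and nars1, the whole interval lay above the ratio of the median gene.

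For sars1, rars1, iars1, mars1 and vars1 the interval held the ratio of the median gene. sars1 and rars1 had larger ratios than the 1.32 of aars1, but fewer counts and so wider intervals. sars1 (seryl, 31.4 and 41.8 FPKM) had a ratio of 1.35 (1.19 to 1.54), rars1 (arginyl, 11.1 and 15.4) 1.45 (1.16 to 1.81), iars1 (isoleucyl, 31.2 and 39.1) 1.25 (1.13 to 1.38) and mars1 (methionyl, 20.4 and 25.1) 1.22 (1.07 to 1.40). vars1 (valyl) was at 20.2 and 23.6 FPKM, with a ratio of 1.16 (1.03 to 1.31) that was under the median gene. 3 enzyme genes had an interval that held 1. For farsa, the alpha subunit of the phenylalanyl enzyme, the levels were 42.4 and 43.4 FPKM (ratio 1.02, 0.90 to 1.16). For wars1 (tryptophanyl) they were 14.6 and 11.9 FPKM, the 1 negative log2 fold of the class at -0.28 (ratio 0.81, 0.61 to 1.07). The expected counts of wars1 were not whole, so reads were divided between genes there too. For yars1 (tyrosyl) the levels were 29.0 and 41.3 FPKM, but its listed gene length was shorter in the mutant table and its counts differed by a ratio of 1.09 (0.93 to 1.27).

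**Figure D2:**
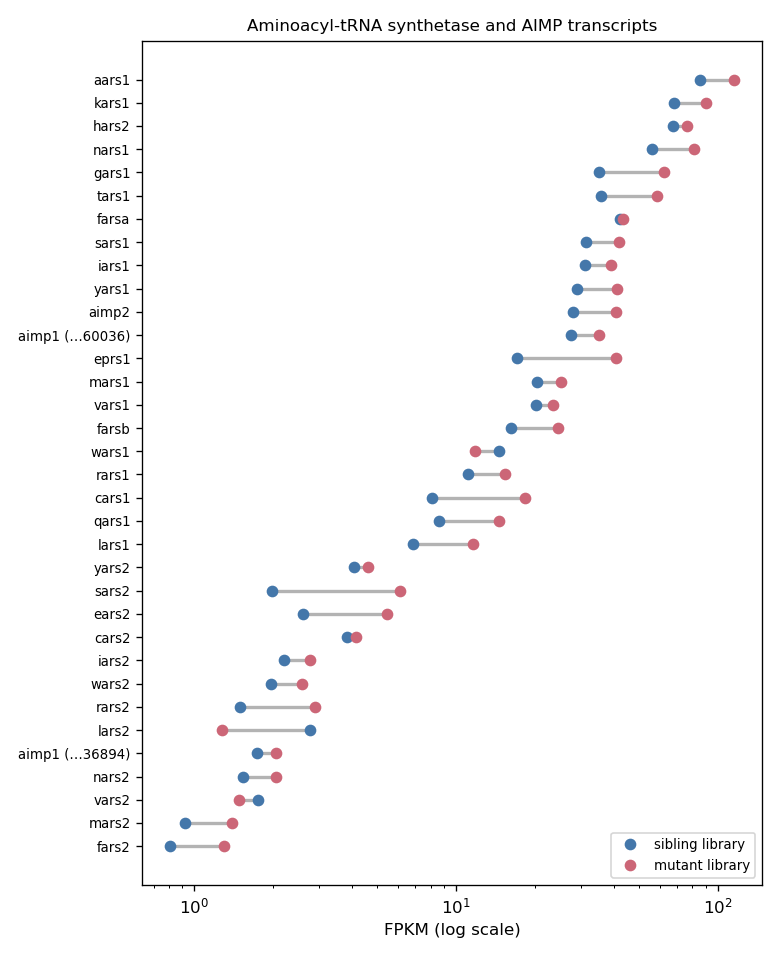
FPKM (horizontal log axis) of synthetase and AIMP genes in the sibling library (blue) and the mutant library (red), 1 value per library, ordered by mean level; genes that share a name carry the end of their identifier. Cytosolic genes fill the upper part, nearly all with the mutant value to the right, and eprs1 (17.0 and 40.8) has the widest gap among genes above 10 FPKM, while sars2 (1.98 and 6.11) and lars2 (2.78 and 1.28) differ in opposite directions at low levels.

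Of the scaffold genes of the multisynthetase complex, aimp2 was at 28.0 and 40.9 FPKM (count ratio 1.32, 1.1 to 1.60) and the more abundant of 2 genes named aimp1 at 27.6 and 35.3 (1.28, 1.05 to 1.55). Both intervals held the 1.22 of the median gene, as did those of the complex enzyme genes kars1, rars1, iars1 and mars1. Those of the complex enzyme genes eprs1, qars1 and lars1 lay above it, so scaffold and enzyme genes were not set apart. The other aimp1 gene (ENSDARG00000036894) had 10 and 15 expected counts, too few to place it. The 11 genes of complex members (its enzymes with the AIMP genes, as the human complex is composed, grouped after their values were seen) had a median log2 fold of 0.43, and the other 11 cytosolic genes 0.50. The summed counts had ratios of 1.49 (1.44 to 1.56) and 1.38 (1.33 to 1.42), so the order of these subgroups turned with the measure. The subunits of the phenylalanyl enzyme, which act as a tetramer of paired alpha and beta chains, differed unequally: per length, farsa exceeded farsb 2.62-fold in the sibling and 1.77-fold in the mutant library.

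Mitochondrial synthetase transcripts were scarce. Leaving hars2 aside, the 13 genes had median levels of 1.97 and 2.59 FPKM, beside 27.8 and 40.0 FPKM for the cytosolic class. hars2 (ENSDARG00000003693), at 67.2 and 76.5 FPKM with a ratio of 1.13 (1.03 to 1.25), stood at the level of a cytosolic gene. It was placed with the mitochondrial genes by its name in the name table, while the RefSeq gene table of the later assembly GRCz12tu lists a single histidyl gene under the name hars. Counted as cytosolic, it left both class medians within 0.02 of the values above.

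The mitochondrial genes scattered on both sides of 1. sars2 (seryl) was at 1.98 and 6.11 FPKM from 21 and 67 counts, a log2 fold of 1.25 and a ratio of 2.93 (1.77 to 5.03), and was past 2-fold under all 8 scalings and pseudocounts tried. ears2 (glutamyl) was at 2.60 and 5.44 FPKM (18 and 41 counts, ratio 2.09, 1.17 to 3.86) and rars2 (arginyl) at 1.49 and 2.88 (1.92, 1.12 to 3.40). With sars2 these were the mitochondrial genes, hars2 aside, whose interval lay above 1. In the other direction lars2 (leucyl) was at 2.78 and 1.28 FPKM (23 and 15 counts, ratio 0.60, 0.29 to 1.2), and the interval held 1. The genes yars2, cars2, iars2, wars2, nars2, vars2, mars2 and fars2 had log2 folds from -0.15 to 0.35 with intervals that held 1, and differences of that size were not detectable at this depth.

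Matching enzymes for the same amino acid did not give a uniform order. In 12 pairs of a cytosolic and a mitochondrial gene, with eprs1 set beside ears2 and farsa beside fars2, the cytosolic gene was the more abundant per length in both libraries, by 2.12-fold to 52.3-fold. The log2 fold was larger in the cytosolic gene in 7 pairs and in the mitochondrial gene in 5, with a median difference of 0.16. By counts the cytosolic gene had the larger ratio in 5 of 12, with a median difference of -0.04 on the log2 scale. In 3 pairs the counting intervals did not overlap. For cysteine and leucine the cytosolic gene had the larger ratio (cars1 2.24 and cars2 0.96, lars1 1.69 and lars2 0.60), and for serine the mitochondrial gene did (sars1 1.35 and sars2 2.93).

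Among the transporters, the heavy chain slc3a2 was at the same level per library total, while several of its partner light chains were higher in the mutant library. The main slc3a2 gene was the most abundant of all 72 genes, at 111 FPKM in both (count ratio 0.99, 0.92 to 1.07). That interval lay wholly below the 1.22 of the median gene, and the log2 fold was -0.29 under TMM, -0.30 under median of ratios, -0.24 once centred on the median gene and 0.15 in TPM. The second heavy chain gene, slc3a2a, was at 5.58 and 6.81 FPKM (1.22, 0.88 to 1.70). slc7a5, which encodes the large neutral amino acid exchanger LAT1, was at 3.86 and 7.86 FPKM from 38 and 84 counts (log2 fold 0.87, ratio 2.03, 1.37 to 3.06). slc7a6, the exchanger y+LAT2, was at 2.59 and 5.26 FPKM (29 and 64 counts, ratio 2.02, 1.29 to 3.26). Its neighbour slc7a6os was at 27.3 and 37.0 FPKM (1.35, 1.14 to 1.60). Whether these genes overlap was not examined. The protocol describes no strand-marking step, so reads from any overlap could not be told apart by strand. slc7a8 (LAT2) was at 6.60 and 8.34 FPKM (1.26, 1.06 to 1.5) and slc7a7 (y+LAT1) at 2.23 and 2.25 (1.01, 0.60 to 1.69), so the light chains did not differ alike.

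2 light chain genes had few counts in the sibling library. One of 2 genes named slc7a10 (ENSDARG00000008100), for the small neutral amino acid exchanger Asc-1, had 5 and 66 counts, 0.28 and 3.46 FPKM, a log2 fold of 1.80 and a ratio of 12.1 (4.93 to 38.5). It was past 2-fold under all 8 scalings and pseudocounts. The other slc7a10 gene (ENSDARG00000051730) was at 2.16 and 1.77 FPKM (0.82, 0.46 to 1.46), with an interval that held 1. slc7a11, for the cystine-glutamate exchanger xCT, had 1 and 9 counts, 0.18 and 1.52 FPKM, and its ratio of 8.25 had a lower bound of 1.14 and an upper bound of 362. Summed over the 7 light chain genes that pair with slc3a2, the level was 17.9 and 30.5 FPKM (summed count ratio 1.51, 1.32 to 1.72), and the heavy chain genes exceeded them 6.52-fold in the sibling and 3.87-fold in the mutant library.

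The cationic carriers of the SLC7 family, which take up arginine and lysine, were led by slc7a3 (ENSDARG00000020645) at 51.4 and 65.5 FPKM (ratio 1.22, 1.14 to 1.32), the value of the median gene, and its paralog was at 3.91 and 4.31 (1.1, 0.73 to 1.66). slc7a1 was lower in level and differed more, at 3.10 and 5.35 FPKM (80 and 150 counts, ratio 1.72, 1.30 to 2.29). slc7a2 was at 1.60 and 1.03 FPKM (0.68, 0.36 to 1.26). Together the 5 genes named slc7a1, slc7a1a, slc7a2 or slc7a3 had a summed count ratio of 1.24 (1.16 to 1.33). slc7a4, slc7a9, slc7a14 and slc7a1a were below 1 FPKM in both libraries.

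**Figure D3:**
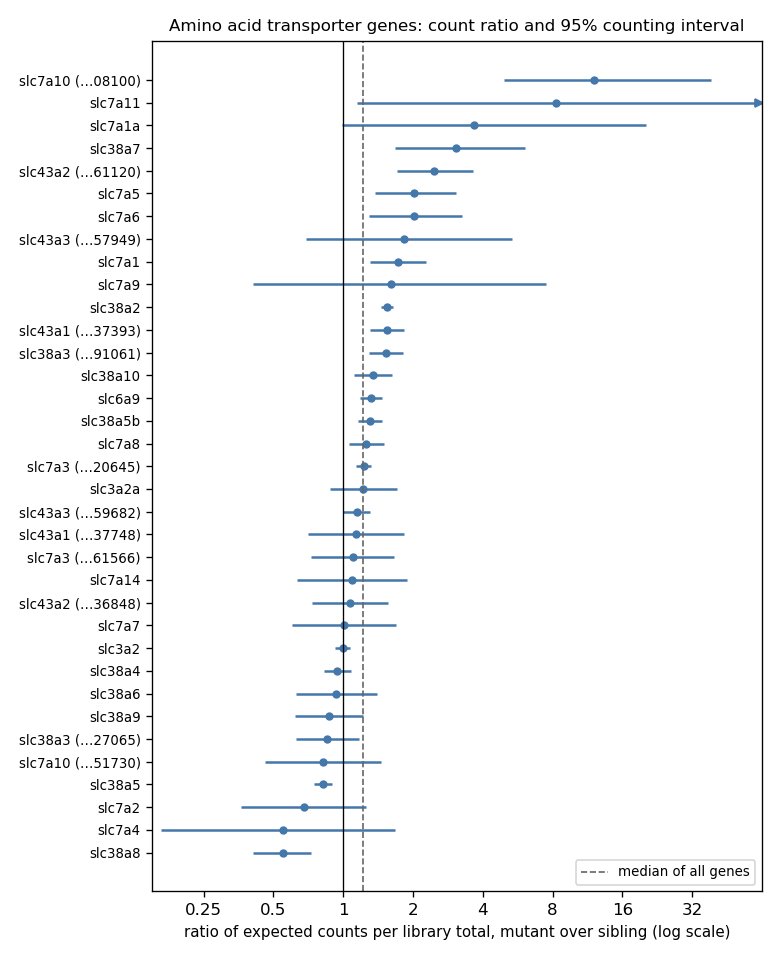
Ratio of expected counts per library total, mutant over sibling (horizontal log axis), for the 35 transporter genes, with bars for the exact 95% counting interval. The solid line marks a ratio of 1 and the dashed line the median gene (1.22). The bar of slc7a11 runs past the axis (arrow, upper bound 362); slc7a10 (12.1) lies farthest to the right, and slc38a5 (0.82) and slc38a8 (0.55) are the genes whose bars end below 1.

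The SLC38 family differed in both directions. slc38a2, the sodium-coupled neutral amino acid carrier SNAT2 whose transcript is raised by amino acid starvation in mammalian cells, was at 66.9 and 99.3 FPKM from 1673 and 2826 counts (log2 fold 0.56, ratio 1.55, 1.46 to 1.65). One gene named slc38a3 (ENSDARG00000091061), for a glutamine carrier, was at 7.76 and 12.4 FPKM (1.52, 1.29 to 1.81), and slc38a7, whose human counterpart exports glutamine from lysosomes, was at 0.94 and 2.79 FPKM (14 and 47 counts, ratio 3.08, 1.67 to 6.05). These 3 had intervals wholly above the median gene. On the other side slc38a8 was at 14.6 and 8.04 FPKM from 134 and 80 counts, the lowest log2 fold of the 72 genes at -0.79 (ratio 0.55, 0.41 to 0.73). The abundant slc38a5 (ENSDARG00000009901) was at 44.5 and 37.0 FPKM (0.82, 0.75 to 0.89), whereas its paralog slc38a5b was at 22.4 and 31.3 (1.30, 1.15 to 1.46). The counts of both were not whole, which means that reads were divided between genes. slc38a9, which reports lysosomal arginine to mTORC1 in human cells, was at 2.44 and 2.13 FPKM (0.87, 0.62 to 1.22), slc38a6 at 4.41 and 4.14, and the other slc38a3 gene at 1.76 and 1.28. slc38a10 was at 7.65 and 8.52 FPKM, but its listed gene length in the mutant table was 1.21 of that in the sibling table. By counts its ratio was 1.34 (1.11 to 1.62).

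In the SLC43 family, 1 of the 2 slc43a2 genes and 1 of the 2 slc43a1 genes had the larger differences. slc43a2 (ENSDARG00000061120), for the branched-chain and aromatic amino acid carrier LAT4, was at 2.64 and 7.68 FPKM from 41 and 110 counts (log2 fold 1.25, ratio 2.46, 1.70 to 3.61), while the other slc43a2 gene was at 3.57 and 3.45 (1.07, 0.73 to 1.56). slc43a1 (ENSDARG00000037393), for the related LAT3, was at 12.9 and 26.0 FPKM (222 and 373 counts, ratio 1.54, 1.30 to 1.83), and its paralog at 1.61 and 1.75 (1.13, 0.70 to 1.84). slc43a3, whose human counterpart carries purine bases and not amino acids, was at 30.9 and 36.2 FPKM (1.14, 1.002 to 1.30), and its paralog at 0.48 and 0.88 FPKM. The 4 genes for LAT3 and LAT4 together had a summed count ratio of 1.53 (1.34 to 1.76).

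slc6a9, for the glycine transporter GlyT1, which supplies glycine for heme synthesis in mouse erythroid cells, was at 13.9 and 26.7 FPKM (565 and 812 counts). Its log2 fold was 0.89 and its count ratio 1.32 (1.18 to 1.47), so the fold on FPKM was larger than that on counts. The gene length, which the tables list separately for each library as a mean over isoforms, differed between them by more than 10% for 14 of the 72 genes. For slc38a4, slc6a9, slc43a1 and yars1 the listed length in the mutant was 0.65, 0.69, 0.77 and 0.77 of that in the sibling table. slc38a4, a neutral amino acid carrier, stood at 19.8 and 28.9 FPKM with 413 and 425 counts, a log2 fold of 0.52 beside a count ratio of 0.94 (0.82 to 1.08). For these genes the isoforms to which reads were assigned differed between the libraries, and an FPKM difference alone does not show a difference in reads.

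**Figure D4:**
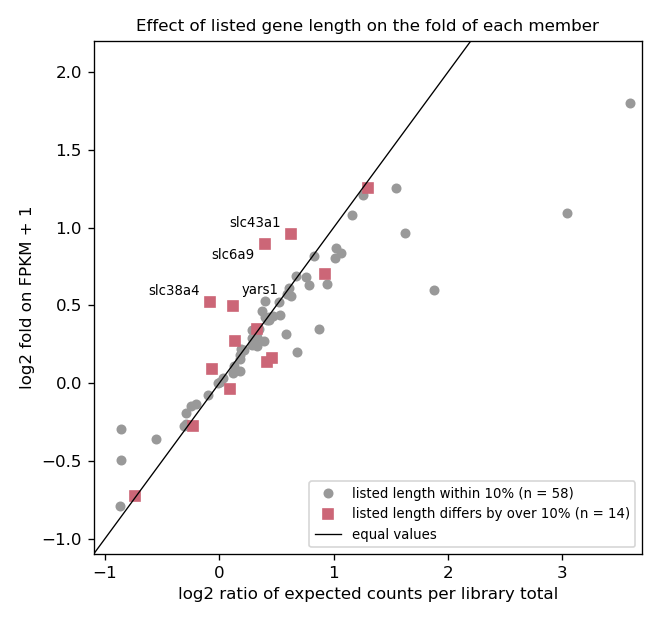
Log2 fold on FPKM + 1 (vertical axis) against the log2 ratio of expected counts per library total (horizontal axis), 1 point per gene. Red squares are the 14 genes whose listed length differs by over 10% between the tables; slc43a1, slc6a9, slc38a4 and yars1 lie above the line of equal values, and points far to the right and below it are genes with low FPKM, which the pseudocount of 1 compresses.

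Of 4 lists of related genes, 3 had medians near the 0.23 of all genes. Of 15 accessory genes of aminoacylation 2 were at least 2-fold higher and none lower, with a median log2 fold of 0.19. The largest was ptrh2, for a peptidyl-tRNA hydrolase, at 1.02 and 4.55 FPKM (ratio 4.43, 1.81 to 13.1). sepsecs, which makes selenocysteinyl-tRNA, was at 1.89 and 0.70 FPKM (0.37, 0.14 to 0.87). Another 25 genes were listed as amino acid carriers, although not all of them are known to carry amino acids. None of the 25 was at least 2-fold higher and 1 was lower, and the median was 0.17. The lower one was slc25a44 (ENSDARG00000035905), a mitochondrial carrier of branched-chain amino acids, at 5.59 and 2.19 FPKM (0.39, 0.22 to 0.67). Next in size of log2 fold were slc25a22a, a mitochondrial glutamate carrier, and the taurine transporter slc6a6. slc25a22a was at 1.23 and 3.02 FPKM from 10 and 23 counts (2.11, 0.97 to 4.96), with an interval that held 1. slc6a6 was at 6.94 and 13.1 FPKM (1.88, 1.36 to 2.62). Another gene named slc25a44 (ENSDARG00000045927) differed in the opposite direction, at 3.17 and 5.71 FPKM (1.80, 1.08 to 3.07). None of 35 amino acid sensing genes of the GCN2 and mTORC1 pathways differed 2-fold, and their median was 0.29. Among them eif2ak4, the kinase GCN2 that detects uncharged tRNA, was at 2.84 and 5.34 FPKM (1.87, 1.41 to 2.50). sec13, shared with the COPII coat, was at 30.6 and 60.0 (1.95, 1.68 to 2.27), and seh1l at 20.5 and 11.3 with a count ratio of 0.98 (0.79 to 1.22). The median of 10 genes of the PERK and ATF4 arm was 0.46, and 3 of them were at least 2-fold higher in the mutant library and none lower, beside 7.08% and 1.72% of all genes. The counting interval lay above 1 for 8 of the 10 and below 1 for 1, beside 34% and 6.97% of all genes. All 10 had a mean FPKM of at least 5, and among all genes at that level the shares were 44.5% and 9.12%. The lowest count ratios of that list were those of ddit4, chac1 and sesn2. ddit4, an inhibitor of mTORC1 signalling, was at 16.9 and 12.3 FPKM (count ratio 0.76, 0.58 to 0.996). The ratios of sesn2 (1.09, 0.96 to 1.25) and chac1 (1.08, 1.04 to 1.12) were under that of the median gene.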

How the data were processed

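Sorted cells of 1 sibling and 1 mutant pool were sequenced from poly(A) RNA. Each deposited table lists Ensembl genes with their length, expected count and FPKM. The submitters' processing notes name RSEM, Bowtie2, BWA and bcl2fastq 2.16 and the build GRCz10, with no role stated. The annotation release is not given in the sources used here. Deposited expected counts are not normalized and need not be whole, since reads matching several genes are divided. Members with counts that were not whole included aars1, nars1, wars1, slc38a2, slc38a4, slc38a5, slc38a5b and slc6a9. Deposited FPKM values are scaled within each library by its own listed gene length, with no scaling between libraries. A gene listed in 1 table was set to 0 in the other. No member was at 0.

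Names came from a table that named 19802 of 21699 genes and often drops the zebrafish paralog letter; genes sharing a name are told apart by identifier. Members and lists were chosen with earlier results of these data known. Synthetase names ending in 2 were called mitochondrial; gars1 and kars1, whose human genes serve both compartments, were counted as cytosolic. A difference was called at 2-fold, a log2 fold on FPKM + 1 of at least 1 in size. Count ratios use rounded expected counts per library total, with exact (Clopper-Pearson) 95% intervals that cover counting error only. They treat counts as independent, which PCR copies are not, so they can be too narrow even for counting error. Lists are described by counts and medians, with no test. Full values are given for cytosolic genes, for the 3 largest log2 folds (at least 20 expected counts in 1 library) among mitochondrial genes and in each transporter family, for all genes past 2-fold and for 8 transporter genes set by name. A few genes counted in the classes and lists are not reported here one by one. Other members named were chosen after their values were seen. The interval and the fold were run on simulated counts that held counting error only, with the same gene length in both libraries. Such counts follow the model that the interval assumes, so the run checked the code and not its fit to these data. Alternatives were a pseudocount of 0.1, TPM, counts scaled to the library total, TMM (edgeR 4.0.16), median of ratios, centring, rescaling without the 10 highest genes, and other minimums and limits. Python 3.11.15, pandas 2.3.3, SciPy 1.17.1 and R 4.3.3 were used.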

Additional observations from a re-analysis of the deposited data

How the results depend on the processing

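The medians of the cytosolic, mitochondrial and transporter classes followed the median of all genes, which lay 0.12 higher in TPM and 0.13 to 0.23 lower under the other scalings named next. In that order they were 0.14, -0.024 and 0.011 under TMM, 0.14, -0.031 and 0.0017 under median of ratios, 0.20, 0.021 and 0.014 once centred, and 0.27, 0.15 and 0.15 without the 10 highest genes. The mitochondrial median thus turned below 0 under TMM and median of ratios, by the construction of scalings that put the median gene near 0. TPM gave 0.58 for the cytosolic and 0.38 for the transporter class. The transporter median was 0.33 with a pseudocount of 0.1, 0.29 in counts scaled to the library total, 0.30 at a minimum of 2 FPKM and 0.41 at 5 FPKM, a minimum added after seeing the data. The count of genes at least 2-fold higher fell to 3 under TMM, median of ratios and centring, each with 1 gene (slc38a8) at least 2-fold lower, and to 3 at a minimum of 5 FPKM. A pseudocount of 0.1 gave 11 higher and 1 lower, and a limit of 1.5-fold gave 20 and 2. Other choices were to count hars2 as cytosolic or leave it out, leave out gars1 and kars1, or count slc7a6os with the transporters. Each of these, like asking for 20 counts, kept all 3 medians within the counting error of their class sums. That error does not measure the spread of a median over genes, and hars2 held 715 of the 1141 sibling counts of the mitochondrial class. No paired analysis was possible because each group has 1 library, and none could be left out. Depth limits genes with few counts: 2 of 14 mitochondrial genes, 5 of 35 transporters and 1 of 22 cytosolic genes had under 20 expected counts in both libraries.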
